A study of Mus musculus with 16 samples.

Results

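The platelet-derived growth factor (PDGF) family was represented by 6 genes, the receptors Pdgfra and Pdgfrb and the ligands Pdgfa, Pdgfb, Pdgfc and Pdgfd. They were taken by gene symbol from 4 deposited expression tables, whatever their values, out of 24934 symbols listed in at least 1 table. All 6 were listed in every table and all 6 passed the filter on low values in each.

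The libraries were made from total RNA of C57BL/6 mice at 24 weeks of age, from their brown adipose tissue, 2 depots of white adipose tissue (epididymal and inguinal, called epididymal fat and inguinal fat here) and liver. Each tissue had 2 libraries from mice given sutent (sunitinib), an oral inhibitor of receptor tyrosine kinases among which are both PDGF receptors, and 2 libraries from mice given vehicle. That makes 16 libraries in 8 groups. No mutant allele is labelled, and the sources used here give no sex, diet, dose or length of treatment. The series states 8 mice, 4 per treatment, and the labels tie no library to a mouse or a pool, so each p-value speaks of the spread between these libraries alone, which may be technical. The sunitinib livers carry the replicate numbers 3 and 4 in their titles.

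PDGF ligands are secreted dimers that bring together a pair of receptor tyrosine kinases. PDGF-A and PDGF-C act mainly through PDGFRα, which marks fibroblasts and the progenitors of white adipocytes, while PDGF-B and PDGF-D act on PDGFRβ, which is carried by pericytes and vascular smooth muscle. Endothelial cells make PDGF-B and hold pericytes on the vessel wall with it. In liver, stellate cells are the pericyte-like cells that respond to PDGF. Sunitinib acts on the kinase and not on the RNA, so the transcript levels below do not measure how far the receptors were inhibited.

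Values are regularized log2 expression (rlog), made by the authors in 1 table per tissue. This transformation shrinks a gene's libraries towards each other, more so where its counts are low, and understates the differences of weakly expressed genes. Each difference is the mean of the sunitinib libraries minus that of the vehicle libraries in log2 units, with its SE and n = 2 in each group, and a gene passed where its limma p, adjusted by Benjamini-Hochberg over all genes tested in the table, was below 0.05. The tissue labels held for their defining markers. Ucp1, the uncoupling protein of brown adipocytes, was at 16.46 to 16.93 in brown fat and at 4.12 to 7.58 elsewhere, Adipoq, which encodes adiponectin, at 15.63 to 16.21 in white fat, and Alb, which encodes albumin, at 20.13 to 20.33 in liver. Libraries of 1 group were not equally alike. The SD over genes of the difference between the members of a pair was 0.590 for sunitinib and 0.224 for vehicle in inguinal fat, and 0.119 for sunitinib and 0.300 for vehicle in brown fat. In epididymal fat it was 0.262 for sunitinib and 0.148 for vehicle, and in liver 0.123 for sunitinib and 0.122 for vehicle.

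No PDGF gene passed the test within a tissue, so the 24 comparisons of 6 genes in 4 tissues gave 0 calls with limma, of which 6 had an unadjusted p below 0.05. In brown fat 0 of 6 passed and 3 had an unadjusted p below 0.05, where 0 percent of 13044 genes passed and 2101 had such a p. In epididymal fat 0 of 6 passed and 1 had such a p, beside 2.34 percent of 15526 genes that passed (0.277 percent higher and 2.06 percent lower) and 3113 with such a p. In inguinal fat 0 of 6 passed and 2 had such a p, against 0 percent of 14916 genes that passed and 1891 with such a p. In liver 0 of 6 passed and 0 had such a p, against 0.194 percent of 12394 genes that passed (0.121 percent higher and 0.0726 percent lower) and 1071 with such a p. With either vehicle library of epididymal fat left out, 0 genes of that table passed.

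The sunitinib libraries lay wholly above the vehicle libraries for 2 PDGF genes and wholly below for 2 in brown fat, where 50.2 percent of all genes did not overlap in this way, 26.2 percent above and 24 percent below. In epididymal fat 3 lay below and 0 above, with 53.7 percent of all genes not overlapping, 26.8 percent below and 27 percent above. In inguinal fat 4 lay below and 0 above, with 50.4 percent of all genes not overlapping, 26.4 percent below and 24 percent above. All 6 overlapped in liver, where 37.4 percent of all genes did not. Over both directions together, the counts of 4, 3 and 4 of 6 in the fat depots were near the shares of all genes. In the white depots every gene without overlap lay below, 3 and 4 of 6, where 26.8 and 26.4 percent of all genes lay below. The median difference of the 6 was −0.036 in brown fat, −0.09 in epididymal fat, −0.28 in inguinal fat and −0.041 in liver. Over all genes tested the medians were −0.0046, 0.0089, 0.0098 and 0.0027 in the same order.

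**Figure D1:**
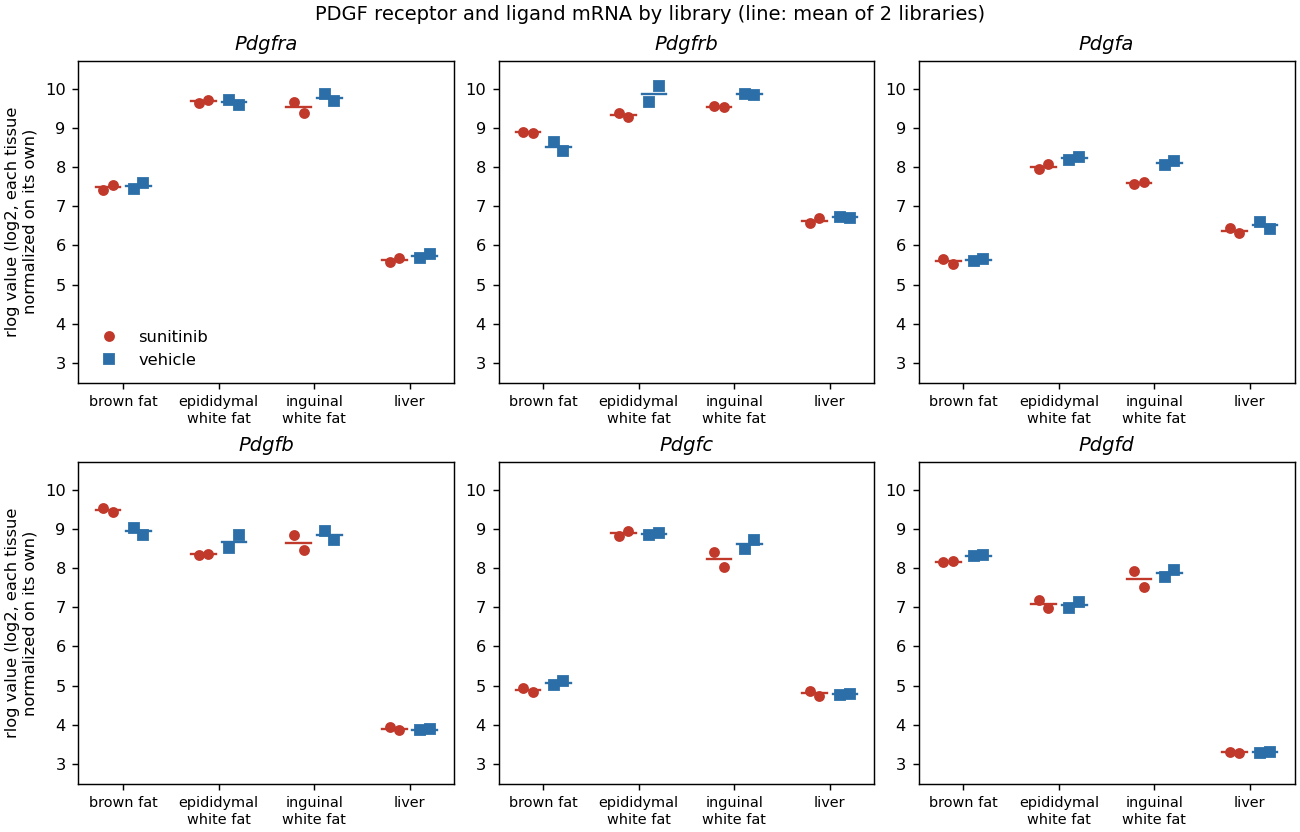
Regularized log2 expression of the 6 PDGF genes in each library (y axis) by tissue (x axis), with sunitinib as circles to the left of vehicle as squares and a line at the mean of 2 libraries. In brown fat the sunitinib libraries lie above the vehicle libraries for Pdgfrb and Pdgfb, and in epididymal fat they lie below them for both genes.

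Pdgfrb, which encodes PDGFRβ, was higher with sunitinib in brown fat and lower in both white depots, and no tissue passed on its own. In brown fat it was at 8.90 and 8.86 in the sunitinib libraries, against 8.63 and 8.40 in the vehicle libraries. Both sunitinib libraries lay above both vehicle libraries, by 0.37 ± 0.09 (limma adjusted p = 0.228). In epididymal fat Pdgfrb was at 9.37 and 9.26 in the sunitinib libraries, against 9.66 and 10.06 in the vehicle libraries. There the sunitinib libraries lay below, by −0.54 ± 0.14 (limma adjusted p = 0.133), and vehicle replicate 2 was the highest of the 4. With 1 library left out the difference lay between −0.74, without vehicle replicate 1, and −0.35, without vehicle replicate 2. In inguinal fat it was at 9.55 and 9.53 with sunitinib, against 9.86 and 9.84 with vehicle. These pairs were close within themselves and apart from each other, with a difference of −0.31 ± 0.09 (limma adjusted p = 0.350). In liver Pdgfrb was at 6.57 and 6.70 with sunitinib, against 6.73 and 6.70 with vehicle, and the groups overlapped (−0.077 ± 0.074). In whole tissue, fewer cells of a type and less RNA per cell cannot be told apart.

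The Pdgfrb difference in brown fat was smaller when scaled to reference genes, and was 0.38 with quantile normalization and 0.38 with median centring. The median of 16 reference genes, chosen for even expression across tissues, was 0.14 higher with sunitinib in brown fat, and −0.051, −0.09 and 0.016 apart in epididymal fat, inguinal fat and liver. Relative to it, Pdgfrb in brown fat was at 0.23 in place of 0.37 (limma adjusted p = 0.195). The direction was the same on each of these scales. Of the 16 reference genes, 13 had a positive difference in brown fat themselves.

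Pdgfra, which encodes PDGFRα, had overlapping groups and small differences in brown and epididymal fat. It was at 7.42 and 7.54 in sunitinib brown fat, against 7.44 and 7.59 in vehicle brown fat (−0.036 ± 0.087, limma adjusted p = 0.853), a difference that was −0.18 when scaled to the reference genes (limma adjusted p = 0.184). In epididymal fat it was at 9.64 and 9.70 with sunitinib, against 9.71 and 9.58 with vehicle (0.023 ± 0.073, limma adjusted p = 0.891). The 95% intervals ran from −0.25 to 0.18 and from −0.16 to 0.21. In inguinal fat Pdgfra was at 9.66 and 9.39 with sunitinib, against 9.87 and 9.67 with vehicle. The sunitinib libraries lay just below, and the difference of −0.25 ± 0.15 did not pass (limma adjusted p = 0.505). Liver had 5.57 and 5.67 with sunitinib, against 5.67 and 5.79 with vehicle, and the groups overlapped (−0.11 ± 0.07).

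Pdgfb, the ligand that endothelial cells present to pericytes, differed in the same direction as Pdgfrb in brown and epididymal fat. In brown fat it was at 9.53 and 9.43 in the sunitinib libraries, against 9.03 and 8.84 in the vehicle libraries. Its difference of 0.55 ± 0.09, or 1.46-fold, had the 41st smallest p of 13044 genes (limma unadjusted p = 0.00126) and did not pass, since no gene of that table did (adjusted p = 0.228). Relative to the reference genes the difference was 0.40 (limma adjusted p = 0.0892). In epididymal fat Pdgfb was at 8.34 and 8.37 with sunitinib, against 8.50 and 8.84 with vehicle. The sunitinib libraries lay below, by −0.32 ± 0.12 (limma adjusted p = 0.251). This ranged from −0.49 without vehicle replicate 1 to −0.15 without vehicle replicate 2. In inguinal fat it was at 8.83 and 8.46 with sunitinib, against 8.94 and 8.72 with vehicle, and the groups overlapped (−0.18 ± 0.18). Liver held little Pdgfb, at 3.94 and 3.87 with sunitinib and 3.87 and 3.90 with vehicle, and the difference was 0.023 ± 0.041.

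Pdgfa, a ligand of PDGFRα, had its largest difference in inguinal fat. It was at 7.56 and 7.62 in the sunitinib libraries there, against 8.04 and 8.16 in the vehicle libraries. The pairs were well apart, by −0.51 ± 0.12 (limma unadjusted p = 0.0132), and the adjusted p of 0.335 did not pass. In epididymal fat Pdgfa was at 7.95 and 8.08 with sunitinib, against 8.17 and 8.26 with vehicle, again lower without passing (−0.21 ± 0.08, limma adjusted p = 0.251). In brown fat it was at 5.66 and 5.53 with sunitinib, against 5.61 and 5.66 with vehicle, and in liver at 6.44 and 6.32 with sunitinib, against 6.60 and 6.43 with vehicle. The groups overlapped in both, with differences of −0.036 ± 0.071 and −0.14 ± 0.08. Scaled to the reference genes, Pdgfa in brown fat was at −0.18 (limma adjusted p = 0.173).

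Pdgfc and Pdgfd encode ligands that are secreted with an inhibitory CUB domain and become active after a protease removes it. In brown fat both had negative differences. Pdgfc was at 4.95 and 4.84 there, against 5.01 and 5.13 with vehicle (−0.18 ± 0.07, limma adjusted p = 0.311). Pdgfd was at 8.15 and 8.18, against 8.31 and 8.32 with vehicle (−0.15 ± 0.06, limma adjusted p = 0.298). The groups did not overlap for either gene, and neither passed. Scaled to the reference genes the differences were −0.32 for Pdgfc (limma adjusted p = 0.0883) and −0.30 for Pdgfd (limma adjusted p = 0.0892). In inguinal fat Pdgfc was at 8.41 and 8.03 with sunitinib, against 8.50 and 8.71 with vehicle (−0.38 ± 0.18, limma adjusted p = 0.449), and sunitinib replicate 2 was the lowest. Pdgfd in the same libraries was at 7.92 and 7.53 with sunitinib, against 7.78 and 7.95 with vehicle (−0.14 ± 0.19). Replicate 2 was again the lowest, and the groups overlapped. In epididymal fat Pdgfc was at 8.82 and 8.95 with sunitinib and 8.84 and 8.88 with vehicle, and Pdgfd at 7.18 and 6.99 with sunitinib and 6.98 and 7.13 with vehicle. In liver Pdgfc was at 4.87 and 4.75 with sunitinib and 4.76 and 4.80 with vehicle, and Pdgfd at 3.31 and 3.29 with sunitinib and 3.29 and 3.31 with vehicle. All of these groups overlapped, with differences between −0.0036 and 0.031.

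**Figure D2:**
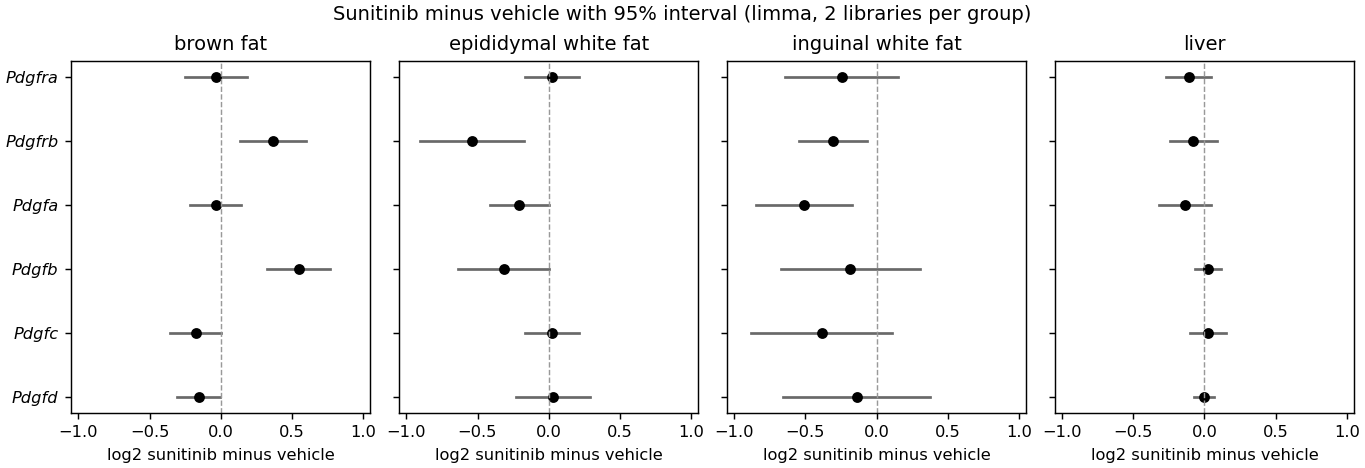
Log2 sunitinib minus vehicle (x axis) of the 6 PDGF genes (y axis) in each tissue, with the 95% limma interval as a bar. The intervals of Pdgfrb and Pdgfb lie above 0 in brown fat, those of Pdgfrb in both white depots, Pdgfd in brown fat and Pdgfa in inguinal fat lie below 0, and those in liver all span 0, where the largest difference was −0.14 for Pdgfa.

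Some calls appeared when a library was left out, in fits where the spread comes only from the pair left intact. Without brown fat vehicle replicate 1, Pdgfrb at 0.48 and Pdgfb at 0.64 passed, and without vehicle replicate 2, Pdgfb passed at 0.45 (limma adjusted p = 0.00724). Without inguinal fat sunitinib replicate 1, Pdgfa passed at −0.48 (limma adjusted p = 0.0409) and Pdgfc at −0.57 (limma adjusted p = 0.0253). In a single fit over the 4 tissues, Pdgfrb passed in epididymal fat (limma adjusted p = 0.0307), and Pdgfa (limma adjusted p = 0.00365) and Pdgfc (limma adjusted p = 0.0430) passed in inguinal fat.

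The effect of sunitinib on Pdgfrb and Pdgfb differed between brown and epididymal fat. The brown fat difference minus the epididymal fat difference was 0.910 ± 0.184 for Pdgfrb (limma interaction, adjusted p = 0.0420), with a 95% interval from 0.48 to 1.34. For Pdgfb it was 0.864 ± 0.163 (limma interaction, adjusted p = 0.0346), with a 95% interval from 0.49 to 1.24. In both genes every sunitinib library lay above the vehicle libraries in brown fat and below them in epididymal fat. These 2 of 6 genes passed where 3.64 percent of 12661 genes did. The other 4 lay between −0.20 for Pdgfc and 0.17 for Pdgfa and did not pass.

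Both calls depended on the processing and on single libraries. Without the filter on low values the adjusted p was 0.0623 for Pdgfrb and 0.0523 for Pdgfb (limma). Scaled to the reference genes the differences were 0.72 (limma adjusted p = 0.0615) and 0.67 (limma adjusted p = 0.0583), and neither passed. With the replicate number of the titles as a block within each depot, the call of Pdgfrb ended (limma adjusted p = 0.0635) and that of Pdgfb held (limma adjusted p = 0.0347). Each of 6 libraries, left out alone, ended both calls. These were sunitinib replicates 1 and 2 and vehicle replicate 2 of brown fat, and sunitinib replicates 1 and 2 and vehicle replicate 2 of epididymal fat. Over the 8 libraries left out in turn the difference lay between 0.71 and 1.11 for Pdgfrb, with limma adjusted p between 0.0242 and 0.163, and between 0.70 and 1.03 for Pdgfb, with limma adjusted p between 0.0217 and 0.148.

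**Figure D3:**
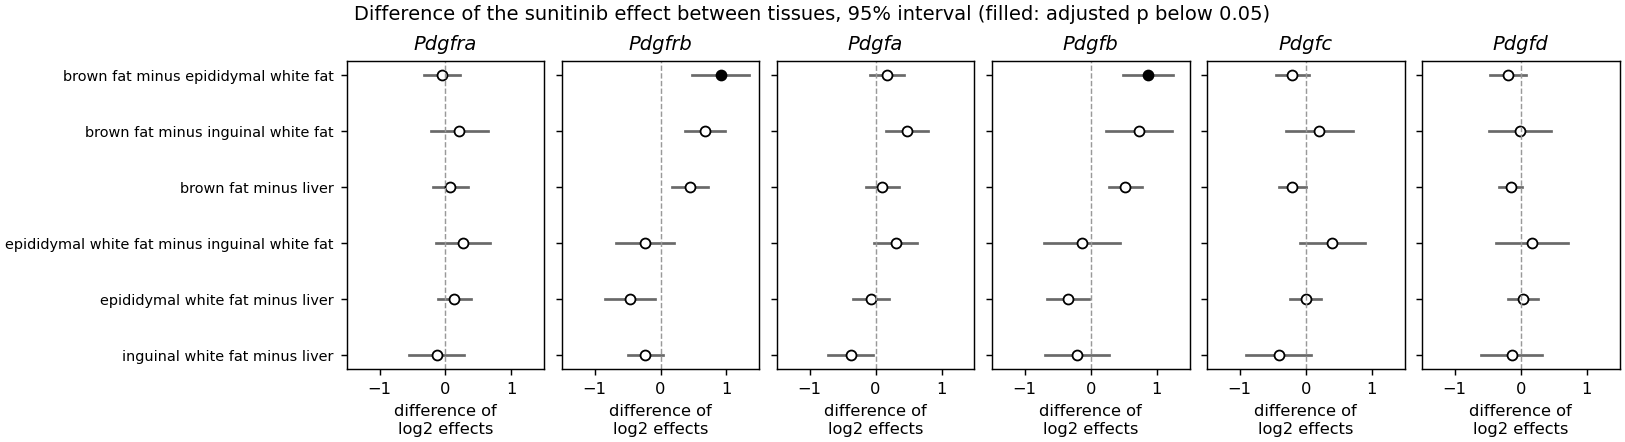
Difference of the log2 sunitinib effect between the tissues of each pair (x axis) for the 6 PDGF genes, with the 95% limma interval as a bar. Filled points mark an adjusted p below 0.05, reached for Pdgfrb at 0.910 and Pdgfb at 0.864 in brown minus epididymal fat.

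No PDGF gene passed in the other 5 pairs of tissues. Brown minus inguinal fat gave 0.68 ± 0.12 for Pdgfrb (limma adjusted p = 0.155), 0.73 ± 0.21 for Pdgfb (limma adjusted p = 0.243) and 0.48 ± 0.13 for Pdgfa (limma adjusted p = 0.242). Here 0.0314 percent of 12725 genes passed. Brown fat minus liver gave 0.45 ± 0.12 for Pdgfrb (limma adjusted p = 0.184) and 0.52 ± 0.11 for Pdgfb (limma adjusted p = 0.137). In that pair 0 percent of 11204 genes passed. For epididymal minus inguinal fat 0 of 6 passed, with 0.507 the smallest limma adjusted p, and 0 percent of 14352 genes passed. The interval for Pdgfrb between the white depots ran from −0.68 to 0.21 and that for Pdgfb from −0.71 to 0.45. Epididymal fat minus liver gave −0.46 ± 0.17 for Pdgfrb (limma adjusted p = 0.173) and −0.34 ± 0.14 for Pdgfb (limma adjusted p = 0.230). There 3.95 percent of 11831 genes passed. Inguinal fat minus liver gave −0.37 ± 0.14 for Pdgfa (limma adjusted p = 0.328), where 0.043 percent of 11626 genes passed. With a library left out some of these passed in limma. Without inguinal fat sunitinib replicate 1, brown minus inguinal fat was 0.69 for Pdgfrb and 0.92 for Pdgfb, and Pdgfc passed at 0.59 in epididymal minus inguinal fat and at −0.60 in inguinal fat minus liver. Without brown fat vehicle replicate 1, brown fat minus liver was 0.56 for Pdgfrb and 0.62 for Pdgfb, and without epididymal fat vehicle replicate 1, epididymal fat minus liver was −0.66 for Pdgfrb and −0.51 for Pdgfb.

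Differences between 2 PDGF genes of the same library do not depend on how libraries were scaled to each other. Pdgfra minus Pdgfrb on the rlog scale was −1.49 and −1.32 in sunitinib brown fat, against −1.19 and −0.81 in vehicle brown fat. In epididymal fat it was 0.27 and 0.44 with sunitinib, against 0.051 and −0.47 with vehicle. The balance between the receptor transcripts was thus shifted by −0.40 in brown fat and by 0.56 in epididymal fat, with no overlap in either, and the groups overlapped in inguinal fat (0.063) and liver (−0.033). No test was made of these shifts, and the share without overlap among other pairs of genes was not counted. Pdgfra itself differed by −0.036 in brown fat and 0.023 in epididymal fat, and Pdgfrb by 0.37 and −0.54.

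The ligand Pdgfb shifted further than Pdgfrb in brown fat and less far in epididymal fat. Pdgfb minus Pdgfrb was 0.63 and 0.57 in sunitinib brown fat, against 0.40 and 0.44 in vehicle brown fat. In epididymal fat it was −1.03 and −0.89 with sunitinib, against −1.16 and −1.22 with vehicle. The sunitinib libraries lay above in both depots, by 0.18 and 0.22. Among the ligands, Pdgfb minus Pdgfd was 1.38 and 1.26 in sunitinib brown fat, against 0.71 and 0.51 in vehicle brown fat. In epididymal fat this difference was 1.16 and 1.38 with sunitinib, against 1.52 and 1.71 with vehicle, so the shifts of 0.70 and −0.35 had opposite signs.

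In vehicle mice both receptor transcripts were higher in white fat than in brown fat and lowest in liver on the rlog scale. The tables were normalized separately, so the order of tissues is given for rlog values and again relative to the reference genes of the same library. Pdgfra stood at a mean of 9.77 in inguinal fat and 9.65 in epididymal fat, whose libraries overlapped, then 7.51 in brown fat and 5.73 in liver. Pdgfrb averaged 9.86 in epididymal and 9.85 in inguinal fat, also overlapping, 8.51 in brown fat and 6.71 in liver. Relative to the reference genes, epididymal fat at −1.37 overlapped both brown fat at −1.48 and inguinal fat at −1.23 for Pdgfrb. The brown fat libraries, at −1.33 and −1.63, lay below those of inguinal fat, at −1.17 and −1.29. Liver stayed lower at −3.17. For Pdgfra the order held on that scale, and inguinal fat no longer overlapped epididymal fat.

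The 4 ligands had different tissue orders in vehicle mice. Pdgfb averaged 8.93 in brown fat, 8.83 in inguinal fat and 8.67 in epididymal fat, which overlapped their neighbours, and 3.88 in liver. Relative to the reference genes brown fat was 1.18 above inguinal fat for Pdgfb, with no overlap. Pdgfd averaged 8.32 in brown fat, 7.86 in inguinal fat, 7.05 in epididymal fat and 3.30 in liver, with no overlap between neighbours on either scale. Pdgfc averaged 8.86 in epididymal fat, 8.60 in inguinal fat, 5.07 in brown fat and 4.78 in liver. The gap of 3.53 between inguinal and brown fat set the white depots apart, and it was 2.45 relative to the reference genes. Pdgfa averaged 8.22 in epididymal fat, 8.10 in inguinal fat, 6.51 in liver and 5.63 in brown fat, so liver held more of it than brown fat on both scales.

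Levels of different genes were compared per kilobase of the longest coding transcript in GENCODE M21, as the rlog value minus log2 of that length. In vehicle brown fat Pdgfb came first at 7.38, followed by Pdgfd at 6.67, Pdgfrb at 6.08, Pdgfra at 4.74, Pdgfa at 4.59 and Pdgfc at 3.26. Pdgfb and Pdgfd thus led Pdgfa and Pdgfc in that tissue. In vehicle epididymal fat 5 of the 6 lay between 6.88 for Pdgfra and 7.42 for Pdgfrb, and Pdgfd was at 5.41. Inguinal fat was alike, with 5 of the 6 between 6.79 for Pdgfc and 7.41 for Pdgfrb, and Pdgfd at 6.22. In vehicle liver Pdgfa led at 5.47, with Pdgfrb at 4.27 and the other 4 between 1.65 for Pdgfd and 2.97 for Pdgfc. With the coding length alone in place of the transcript, Pdgfb led in both white depots and Pdgfrb was the fourth there, while the genes in front in brown fat and in liver were unchanged.

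**Figure D4:**
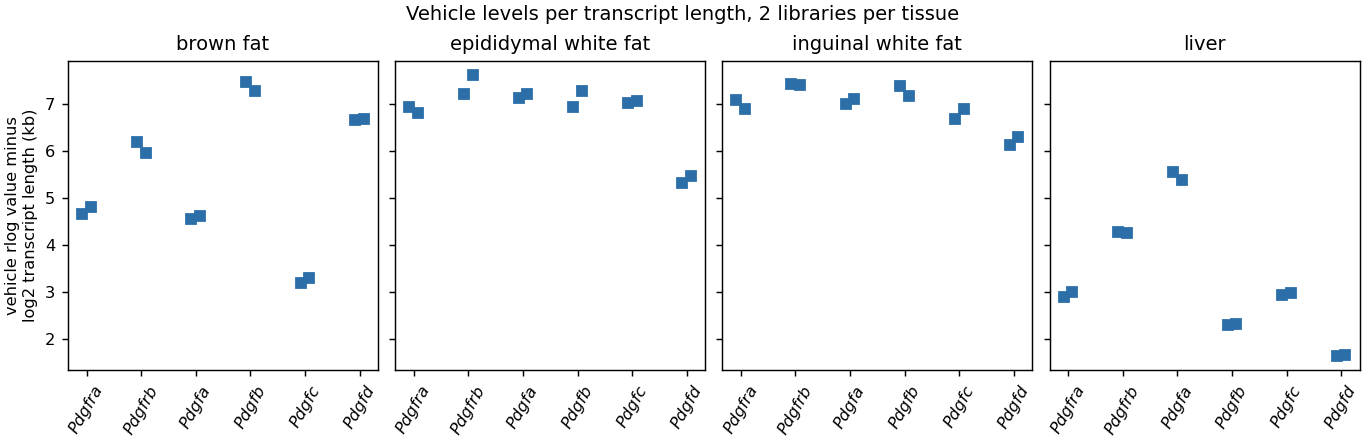
Vehicle levels per transcript length (rlog value minus log2 of the length in kilobases, y axis) of the 6 PDGF genes (x axis) in each tissue, with a point for each of 2 libraries. Brown fat is led by Pdgfb at 7.38 and Pdgfd at 6.67, liver by Pdgfa at 5.47, and the white depots hold 5 of the genes at about the same level.

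The counting of reads may mix neighbours on the other strand for some members. In GENCODE M21 (build GRCm38), Pdgfra and Pdgfa lie on chromosome 5, Pdgfrb on chromosome 18, Pdgfb on chromosome 15, Pdgfc on chromosome 3 and Pdgfd on chromosome 9. Exons of other genes overlap 652 exonic bases of Pdgfra, 813 of Pdgfa and 147 of Pdgfc, antisense genes among them, and none of Pdgfrb, Pdgfb or Pdgfd. The sources used here do not say whether counting used the strand, so reads of the overlapped members and their antisense partners cannot be told apart. The antisense gene at Pdgfa, 6330403L08Rik, was at 7.10 and 6.95 in sunitinib inguinal fat, against 7.32 and 7.12 in vehicle inguinal fat (−0.20 ± 0.16, limma adjusted p = 0.584).

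Genes that activate, bind or trap PDGF ligands gave no call. Of 12 such genes, among them Furin, Pcsk5, Plat, Plau, Nrp1, Nrp2, Lrp1 and Sparc, 10 were tested in brown fat and in liver and 11 in each white depot. None passed in limma, and the medians were 0.033 in brown fat, −0.27 in epididymal fat, −0.17 in inguinal fat and 0.0073 in liver. Plau, the urokinase that can release PDGF-D, was at 9.10 and 8.73 in sunitinib inguinal fat, against 9.83 and 9.60 in vehicle inguinal fat (−0.80 ± 0.18, limma adjusted p = 0.313). Lrp1, a co-receptor of PDGFRβ, was at 13.44 and 13.34 in sunitinib epididymal fat, against 13.75 and 13.79 in vehicle epididymal fat (−0.38 ± 0.08, limma adjusted p = 0.0949). In brown fat Pcsk5, a proprotein convertase, was at 7.68 and 7.78 with sunitinib, against 7.37 and 7.39 with vehicle (0.35 ± 0.07, limma adjusted p = 0.228). Plat, the tissue plasminogen activator that cleaves PDGF-C, was at 6.74 and 6.77 with sunitinib in brown fat, against 6.53 and 6.50 with vehicle (0.24 ± 0.06, limma adjusted p = 0.232). Nrp1, a neuropilin that binds PDGF ligands, was at 10.20 and 9.84 in sunitinib liver, against 9.72 and 9.64 in vehicle liver (0.34 ± 0.11, limma adjusted p = 0.403).

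The machinery downstream of the receptors was nearly level as a group. All 28 listed transducers, such as Grb2, Plcg1, the PI3-kinase subunits and Src kinases, were tested in every tissue. In limma 0 of them passed in any tissue, and the medians were −0.012, −0.033, −0.0029 and 0.0071 in brown fat, epididymal fat, inguinal fat and liver. Fyn, a Src family kinase that binds activated PDGF receptors, was at 8.42 and 8.37 in sunitinib brown fat, against 8.05 and 8.02 in vehicle brown fat (0.36 ± 0.06, limma adjusted p = 0.228). In epididymal fat Fyn was at 8.38 and 8.39 with sunitinib, against 8.72 and 8.68 with vehicle (−0.31 ± 0.06, limma adjusted p = 0.0804). These had opposite signs in the depots where Pdgfrb did, without passing. Pik3r1, the regulatory subunit of PI3-kinase, was at 9.08 and 8.86 in sunitinib brown fat, against 9.58 and 9.35 in vehicle brown fat (−0.49 ± 0.11, limma adjusted p = 0.228). Gab1, a docking protein, was at 8.70 and 8.51 in sunitinib inguinal fat, against 9.08 and 9.12 in vehicle inguinal fat (−0.50 ± 0.12, limma adjusted p = 0.321).

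Immediate early and feedback genes, which growth factor receptors induce, gave no call either. Of 24 listed, 22 were tested in brown fat, 23 in each white depot and 18 in liver, and 0 passed in limma. Their medians were −0.010, 0.0096, −0.13 and 0.049 in brown fat, epididymal fat, inguinal fat and liver. Ccnd1, the G1 cyclin D1, was at 9.28 and 9.33 in sunitinib epididymal fat, against 8.62 and 8.95 in vehicle epididymal fat (0.52 ± 0.12, limma adjusted p = 0.112). Myc, a growth-promoting transcription factor, was at 7.98 and 8.49 in sunitinib inguinal fat, against 7.50 and 7.29 in vehicle inguinal fat (0.84 ± 0.22, limma adjusted p = 0.343). Dusp4, a MAP kinase phosphatase, was at 5.36 and 5.36 in sunitinib liver, against 5.13 and 5.15 in vehicle liver (0.22 ± 0.05, limma adjusted p = 0.211). Jun, a subunit of the AP-1 transcription factor, was at 9.15 and 8.69 in sunitinib liver, against 9.74 and 9.21 in vehicle liver (−0.55 ± 0.18, limma adjusted p = 0.392). Spred1, an inhibitor of Ras signalling, was at 8.40 and 8.48 in sunitinib inguinal fat, against 8.82 and 8.80 in vehicle inguinal fat (−0.37 ± 0.10, limma adjusted p = 0.351). The first 3 thus had positive differences and the others negative ones, without a call. They were named for the smallest p of the list in their tissue, a choice that favours groups without overlap. Positive differences of 0.19 for Ccnd1 and 0.19 for Spry1 in brown fat and of 0.24 for Srf in epididymal fat did not pass either.

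Endothelial markers had differences of the same sign as those of Pdgfb and Pdgfrb in each fat depot, nearly all without a call. In brown fat 16 of 16 listed endothelial genes had a positive difference, with a median of 0.37, and 0 passed in limma. Their summed level, as log2 of the sum, was 14.36 and 14.28 with sunitinib, against 14.09 and 13.72 with vehicle. In epididymal fat 16 of 16 were negative with a median of −0.38, and the summed level was 13.28 and 13.35 with sunitinib, against 13.56 and 13.95 with vehicle. Cd93, a glycoprotein of angiogenic endothelium, fell there by 0.94 ± 0.09 (limma adjusted p = 0.0217). Inguinal fat had 16 of 16 negative with a median of −0.33 and sums of 13.84 and 13.66 with sunitinib, against 14.13 and 14.05 with vehicle. Liver had 12 of 16 negative with a median of −0.11. The part of these genes in the Pdgfb and Pdgfrb differences was not tested.

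Set against the median of the endothelial list in the same library, Pdgfb overlapped between treatments in brown and epididymal fat. Pdgfb minus that median was −0.40 and −0.37 in sunitinib brown fat, against −0.57 and −0.34 in vehicle brown fat. In epididymal fat it was −0.86 and −0.83 with sunitinib, against −0.81 and −0.91 with vehicle. The shifts were 0.074 and 0.016, against 0.55 and −0.32 for Pdgfb itself. In inguinal fat it was −0.81 and −0.82 with sunitinib, against −0.95 and −1.13 with vehicle, and in liver −2.78 and −2.85 with sunitinib, against −2.99 and −3.05 with vehicle. The sunitinib libraries lay above in both, by 0.22 and 0.21. Pdgfb itself differed by −0.18 in inguinal fat and by 0.023 in liver, where its level was low. Pdgfrb minus the endothelial median was −1.03 and −0.94 in sunitinib brown fat, against −0.97 and −0.78 in vehicle brown fat, which overlapped. In epididymal fat it was 0.17 and 0.067 with sunitinib, against 0.35 and 0.31 with vehicle, and the sunitinib libraries lay below by −0.21.

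Genes of pericytes and smooth muscle, which are among the cells that carry PDGFRβ, were less even than the endothelial list. In brown fat 11 of 15 were positive with a median of 0.13, in epididymal fat 10 of 15 negative with a median of −0.18, in inguinal fat 14 of 15 negative with a median of −0.31, and in liver 7 of 12 positive with a median of 0.027. None passed in limma in any tissue. Rgs5, a pericyte regulator of G-protein signalling, was at 12.40 and 12.30 in sunitinib brown fat, against 12.41 and 12.26 in vehicle brown fat (0.015 ± 0.083). In epididymal fat Rgs5 was at 10.28 and 10.32 with sunitinib, against 10.87 and 11.14 with vehicle (−0.70 ± 0.11, limma adjusted p = 0.0508). In inguinal fat it was at 10.87 and 10.89 with sunitinib, against 11.64 and 11.73 with vehicle (−0.80 ± 0.09, limma adjusted p = 0.285). Other genes of the list had positive differences in brown fat, as Pdgfrb did. Kcnj8, a potassium channel subunit of pericytes, was at 8.91 and 8.78 there with sunitinib, against 8.55 and 8.35 with vehicle (0.39 ± 0.09, limma adjusted p = 0.228), and Ndufa4l2 was at 6.45 and 6.46 with sunitinib, against 6.16 and 6.21 with vehicle (0.27 ± 0.06, limma adjusted p = 0.228). Cspg4, the pericyte proteoglycan NG2, was at 8.92 and 9.14 in sunitinib brown fat, against 9.19 and 9.25 in vehicle brown fat (−0.19 ± 0.09, limma adjusted p = 0.368).

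The summed pericyte and smooth muscle level was 13.51 and 13.41 in sunitinib brown fat, against 13.36 and 13.46 in vehicle brown fat. In epididymal fat it was 15.62 and 14.41 with sunitinib, against 14.63 and 14.63 with vehicle. In inguinal fat it was 14.27 and 14.14 with sunitinib, against 14.80 and 14.70 with vehicle. For liver the sum was 15.24 and 15.10 with sunitinib, against 15.16 and 15.11 with vehicle. The median of the list in liver was only 5.86 and 5.88 with sunitinib, against 5.86 and 5.92 with vehicle. The liver sum thus rested on its most abundant members and does not give a level of pericytes. Sunitinib replicate 1 stood apart in epididymal fat, with the highest sum and the highest list median, 9.11. It was not higher for every gene, and Rgs5 at 10.28, Cspg4 at 9.11 and Ndufa4l2 at 6.00 were lowest in that library. A sum follows its most abundant members, and the list also holds smooth muscle genes. In liver Cspg4 was at 0.51 to 0.54, below the filter, and Higd1b was not listed. Nes, which encodes nestin and belongs to the stellate cell list, was at 10.31 and 10.19 in sunitinib brown fat, against 9.87 and 9.68 in vehicle brown fat (0.48 ± 0.09, limma adjusted p = 0.228). It was at 8.31 and 8.37 in sunitinib epididymal fat, against 8.71 and 8.97 in vehicle epididymal fat (−0.50 ± 0.10, limma adjusted p = 0.0852). Of the stellate cell genes tested in brown fat, 2 of 5 had positive differences, with a median of −0.021, and Ecm1, an extracellular matrix protein, was at 7.51 and 7.48 with sunitinib, against 7.49 and 7.76 with vehicle (−0.13 ± 0.10, limma adjusted p = 0.567). In liver 9 of 10 stellate cell genes were tested, 7 of 9 had negative differences with a median of −0.16, and 0 passed in limma.

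Pdgfrb minus the median of the pericyte list in the same library was −0.0099 and 0.35 in sunitinib brown fat, against 0.079 and −0.0042 in vehicle brown fat, which overlapped (0.13). Epididymal fat had 0.26 and 1.07 with sunitinib, against 1.27 and 1.26 with vehicle, and in inguinal fat 0.67 and 0.61 with sunitinib, against 0.73 and 0.81 with vehicle. Both white depots had the sunitinib libraries below, by −0.60 and −0.13, and sunitinib replicate 1 was the lowest in epididymal fat. The groups overlapped in liver (−0.059).

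**Figure D5:**
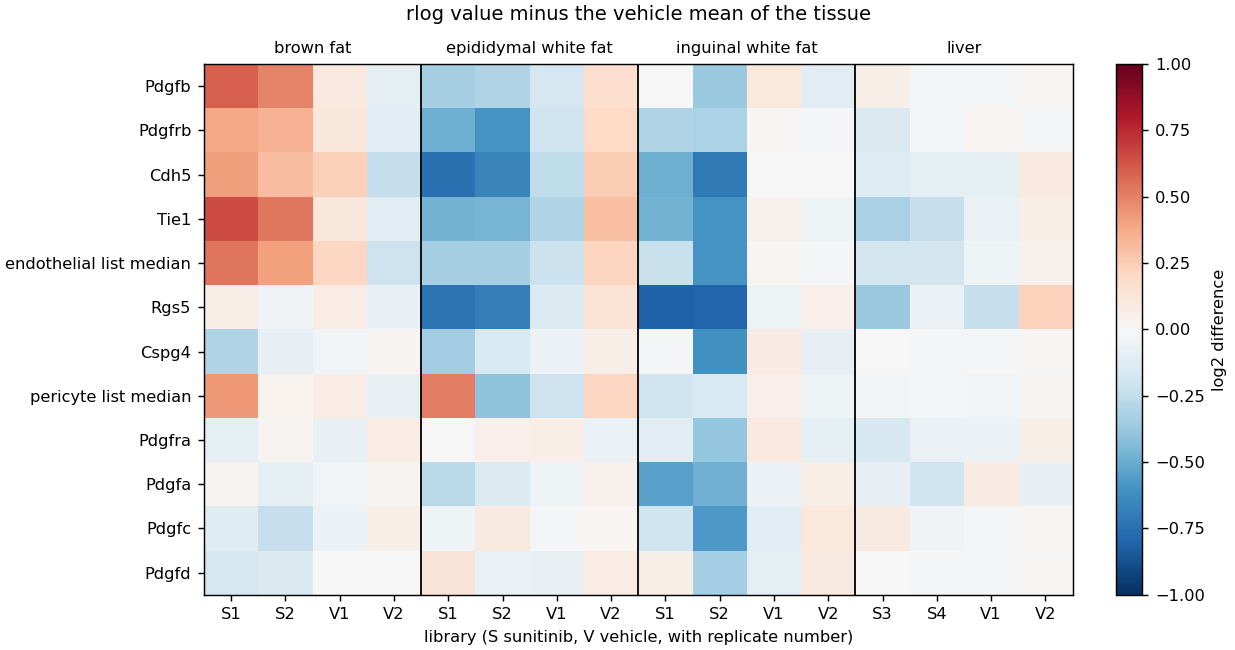
Rlog value of each library minus the vehicle mean of its tissue (colour, log2 difference from −1 to 1) for the 6 PDGF genes, endothelial and pericyte markers and 2 list medians (rows), with sunitinib libraries (S) left of vehicle libraries (V) in each tissue (columns). Pdgfb, Pdgfrb and the endothelial genes are high in sunitinib brown fat and low in sunitinib epididymal fat, while Rgs5 is level in brown fat and low with sunitinib in both white depots.

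Genes of fibroblasts and adipocyte progenitors, which are among the cells that carry PDGFRα, were mostly negative in inguinal fat without a call. Of 20 listed, 14 of 19 tested were negative there with a median of −0.50, and the medians were −0.074 in brown fat, −0.08 in epididymal fat and −0.065 in liver. None passed in limma. Wisp2, a secreted factor of progenitors, was at 7.50 and 7.53 in sunitinib inguinal fat, against 8.75 and 8.55 in vehicle inguinal fat (−1.13 ± 0.13, limma adjusted p = 0.285), and Cd34 at 10.18 and 9.88 with sunitinib, against 10.90 and 10.82 with vehicle (−0.83 ± 0.14, limma adjusted p = 0.310). Pdgfra minus the median of this list was −0.51 and −0.50 in sunitinib inguinal fat, against −1.04 and −0.67 in vehicle inguinal fat. The sunitinib libraries lay above by 0.35. They also lay above in epididymal fat, by 0.18, overlapped the vehicle libraries in brown fat (0.086), and lay below in liver, at −0.43 and −0.25 with sunitinib, against −0.17 and −0.18 with vehicle (−0.16).

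Other cell types also differed in the libraries in which PDGF genes did. In epididymal fat 8 of 12 macrophage genes passed as lower and 0 as higher, with a median of −0.83. Of all 15526 genes tested there, 2.06 percent passed as lower and 0.277 percent as higher. The summed level of the macrophage genes was 14.28 and 14.38 with sunitinib, against 15.31 and 15.21 with vehicle. Mpeg1, a pore-forming protein of macrophages, fell by 1.64 ± 0.08 there, and Itgax, an integrin chain, fell by 1.53 ± 0.08 (limma adjusted p = 0.0121 for each). These calls and those of Cd93 and Pde2a in epididymal fat were lost without either vehicle library, where 0 genes of the table passed. Macrophage sums in inguinal fat were 13.63 and 14.31 with sunitinib, against 14.36 and 14.05 with vehicle. Of 8 platelet genes, whose cells store PDGF protein, 3 were tested in each fat depot and 2 in liver, and none passed. Pf4 was at 8.98 and 9.01 in sunitinib epididymal fat, against 9.30 and 9.17 in vehicle epididymal fat (limma adjusted p = 0.174).

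Marker genes of neighbouring tissues varied between libraries. Genes of the epididymal duct epithelium had a summed level of 13.37 and 11.13 in sunitinib epididymal fat, against 9.56 and 10.16 in vehicle epididymal fat. Crisp1, a secreted protein of the duct, was at 12.66 and 5.97 with sunitinib, against 6.21 and 6.05 with vehicle. For Crisp1, sunitinib replicate 1 thus stood apart by more than 6 log2 units. The list as a whole was not limited to that library, and 8 of 8 genes tested had a positive difference, with a median of 1.56. Cldn7 was at 7.16 and 6.96 with sunitinib, against 5.89 and 6.25 with vehicle, and passed (0.99 ± 0.14, limma adjusted p = 0.0484). Skeletal muscle genes summed to 15.96 and 12.80 in sunitinib inguinal fat, against 17.77 and 16.35 in vehicle inguinal fat, and to 13.65 and 12.99 in sunitinib brown fat, against 11.67 and 15.42 in vehicle brown fat. Without sunitinib replicate 1 of epididymal fat the brown minus epididymal difference was 0.96 for Pdgfrb and 0.85 for Pdgfb, against 0.910 and 0.864 with it. Without vehicle replicate 2 of brown fat, the library of that depot with the highest muscle sum, it was 0.80 for Pdgfrb and 0.77 for Pdgfb. Both calls were lost in either case. The part of carried-over tissue in the other PDGF values was not tested.

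Genes most like each PDGF gene were sought by Pearson r of the deviations from the tissue mean over the 16 libraries, among 9911 candidates tested in all tables. These libraries share the treatment contrast within each tissue, so r is a description. For Pdgfrb the first 3 were Cdh5, the cadherin of endothelial junctions (0.939), Pde2a, a phosphodiesterase (0.933), and Tie1, an endothelial receptor tyrosine kinase (0.929). For Pdgfb they were Arap3, a GTPase-activating protein (0.945), Slc9a3r2, a scaffold protein (0.933), and Arhgef15, a guanine nucleotide exchange factor (0.933). Cdh5 had differences of 0.36, −0.70, −0.60 and −0.11 in brown fat, epididymal fat, inguinal fat and liver, and Arap3 of 0.45, −0.45, −0.17 and −0.16. Cdh5 passed in no tissue, with limma adjusted p between 0.120 and 0.801. Pde2a fell by 0.94 ± 0.09 in epididymal fat (limma adjusted p = 0.0216) and passed in no other tissue.

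For Pdgfa the closest were Tfrc, the transferrin receptor (0.970), Elp3, a subunit of Elongator (0.924), and Sh3tc1 (0.921). Tfrc had differences of −0.10, −0.26, −0.90 and −0.22 in brown fat, epididymal fat, inguinal fat and liver. For Pdgfra they were Rab12, a small GTPase (0.913), Vdac1, a channel of the mitochondrial outer membrane (0.897), and Pgm2, a phosphoglucomutase (0.894). Pdgfc had Cav2, a caveolin (0.931), Nrip1, a co-repressor of nuclear receptors (0.920), and Fkbp14, a prolyl isomerase (0.919), and Pdgfd had Cask, a scaffold kinase (0.912), Med12l (0.886) and Fech, which inserts iron into haem (0.880). Among the PDGF genes themselves r was 0.821 for Pdgfrb with Pdgfb, 0.735 for Pdgfc with Pdgfd and 0.650 for Pdgfa with Pdgfc. The receptors did not vary together, with r of 0.056 for Pdgfra with Pdgfrb, and in the 12 fat libraries alone Pdgfrb with Pdgfb was at 0.844.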

How the data were processed

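Per the labels, total RNA was extracted and sequenced in 16 libraries, 2 per treatment in each of 4 tissues. The authors deposited a table of regularized log2 values for each tissue, a unit taken from the tables' names. The submitters' processing notes list mm9 as the build and, with no role stated, DESeq2, bedtools, TopHat2 2.1.1 and bcl2fastq 2.17.1.14. Read totals cannot be had from such values, so depth is unknown and counting error is not covered. Groups were read from the titles, which number the sunitinib livers 3 and 4 where the descriptions give 1 and 2. No 2 libraries held identical values.

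Within a tissue, genes whose mean reached 3 were tested two-sided with limma 3.58.1 (R 4.3.3, intensity trend in the variance), with 2 residual degrees of freedom and Benjamini-Hochberg adjustment over 13044, 15526, 14916 and 12394 genes of brown fat, epididymal fat, inguinal fat and liver. Tissue differences were limma interaction contrasts over 8 libraries, adjusted over the genes tested in both tables. Levels relative to reference genes subtract the median of 16 genes of the same library. Gene lengths and overlaps are from GENCODE M21 (GRCm38), a different build, so no coordinates are used.

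The PDGF genes and all gene lists were chosen with earlier results of these data known. The genes named are all 6 members and, drawn from the rule, up to 4 genes per list and tissue that passed or otherwise up to 2 by p, and the 3 most like genes per member. Crisp1, Cspg4, 6330403L08Rik, and Rgs5 in brown fat were chosen after their values were seen. A few others that the rule gives are not reported here. Alternatives were other filters, normalizations and variance models, 1 fit over all tissues, a replicate block and each library left out. Scaling to reference genes, the crossed pairing and the block for tissue differences were added after seeing the data. So were the differences between a PDGF gene and the median of a marker list.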

Additional observations from a re-analysis of the deposited data

Results flagged for a closer look

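The effect of sunitinib on Pdgfrb differed between brown and epididymal fat by 0.910 ± 0.184 (limma interaction, adjusted p = 0.0420). It was flagged for the opposite sign, with a difference of 0.37 in brown fat and −0.54 in epididymal fat. The same pair of signs was found in 16 of 16 listed endothelial genes. The effect on Pdgfb differed between the same depots by 0.864 ± 0.163 (limma interaction, adjusted p = 0.0346), with differences of 0.55 in brown fat and −0.32 in epididymal fat. Neither gene passed within a depot. The calls ended under the alternatives given with them in the results. Groups of 2 libraries are too small to test a library as lying apart.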

How the results depend on the processing

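The 2 calls in brown minus epididymal fat became 0 without the filter on low values and when scaled to the reference genes, and 0 to 2 when 1 library was left out. They held with a mean of at least 5, quantile normalization, median centring, no trend and a robust fit. Within tissues the 0 calls became 1 in epididymal fat and 2 in inguinal fat with 1 fit over the 4 tissues, and 0 to 2 in brown and in inguinal fat with 1 library left out. Leaving out 1 library also gave 0 to 2 calls in brown minus inguinal fat, brown fat minus liver and epididymal fat minus liver, and 0 to 1 in epididymal minus inguinal fat and inguinal fat minus liver. With 1 library left out, the spread rests on the pair left intact. With the replicate block 0 PDGF genes passed in brown, epididymal or inguinal fat, as without it, and 1 in place of 2 passed in brown minus epididymal fat, where Pdgfrb was lost. The liver groups share no number. Deviations of libraries with the same number had r of −0.256 in brown, 0.224 in epididymal and 0.108 in inguinal fat. The crossed pairing in brown fat gave 0 calls.

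Differences that did not pass and changed sign when 1 library was left out ranged from −0.11 to 0.042 for Pdgfra and −0.10 to 0.030 for Pdgfa in brown fat. In epididymal fat they ranged from −0.043 to 0.088 for Pdgfra, −0.043 to 0.090 for Pdgfc and −0.064 to 0.13 for Pdgfd, which was −0.022 with quantile normalization. In inguinal fat the ranges were −0.37 to 0.0029 for Pdgfb and −0.34 to 0.057 for Pdgfd. In liver they were −0.015 to 0.061 for Pdgfb, −0.037 to 0.087 for Pdgfc and −0.016 to 0.0085 for Pdgfd. The cause of these changes was not tested.

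Counts over all genes moved more. Brown fat had 0 calls, 5 with 1 fit over the 4 tissues and up to 1292 with a library left out. Epididymal fat had 363, against 210 without the filter, 569 with a mean of at least 5, 584 with a robust fit, 678 with the replicate block and 0 to 1121 with a library left out. Inguinal fat had 0, against 3174 with 1 fit and up to 4103 with a library left out. Liver had 24, against 3 without the trend, 214 scaled to the reference genes and 50 to 454 with a library left out. Of the 3 genes most like each member, ranks in place of values kept 0 for Pdgfra, 1 for Pdgfrb, 3 for Pdgfa, 2 for Pdgfb, 0 for Pdgfc and 1 for Pdgfd. Depth is unknown, and shrinkage understates differences of weakly expressed genes.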
